A study of Bos taurus with 34 samples.

Results

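Peripheral white blood cells (PWBC) of heifers that later conceived to bulls were compared with those of heifers that did not conceive in the same breeding season. The comparison rests on the 11 PWBC libraries of the NB-preg group (pregnant to natural breeding, n = 6, heifers 93, 103, 108, 111, 116 and 121) and of the non-pregnant group (n = 5, heifers 94, 101, 107, 113 and 115), which are 11 of the 34 samples of the series and 11 of its 17 PWBC libraries. All were yearling Angus-Simmental crossbred heifers raised together, with oestrus synchronised by the same protocol, inseminated at a fixed time with semen of 1 sire and bled right after it. Both groups therefore share the failed insemination, and they differ in whether the heifers conceived to the bulls that followed. A further group, AI-preg (n = 6), had conceived to the insemination and stayed out of the contrast. Pregnancy was judged by palpation weeks after the blood was drawn, so the groups are named for an outcome that came later. One library is 1 heifer sampled once, and 1 further non-pregnant library is not analysed here because the study dropped it for its low yield.

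White blood cells are a mixture of neutrophils, eosinophils, monocytes, lymphocytes and minor populations, taken here as the whole buffy coat after red cells were lysed. Neutrophils are short-lived phagocytes that carry receptors for granulocyte growth factors and chemokines, store antimicrobial proteins such as the S100 calgranulins, and kill with an NADPH oxidase. Eosinophils depend on interleukin 5. Lymphocytes include B cells, which mature into antibody-secreting plasma cells with an enlarged secretory pathway. In a bulk library of such a mixture, fewer cells of a type and less RNA per cell cannot be told apart.

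Of 27570 genes in the count table, 10942 reached at least 2 CPM (counts scaled to a common library total) in 5 or more of the 17 PWBC libraries and were tested. NB-preg libraries held 6402207 to 56867279 counts and non-pregnant libraries 4184999 to 20164587 (2.05-fold difference in geometric mean, p = 0.156, two-sided exact permutation test over 462 arrangements). A count of 0 allowed at most 0.719 CPM in the shallowest library, of non-pregnant heifer 101, taken as 3 counts and covering counting error only. The leukocyte antigen PTPRC (CD45) was present in all 11 libraries, at 125 to 2577 CPM (median 563) in NB-preg heifers and at 235, 3225, 452, 345 and 514 CPM in the non-pregnant heifers in ascending order of heifer number (94, 101, 107, 113, 115), the order used for all lists of 5 values here. No identifier could be matched to the red cell or to the basophil and mast cell markers.

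The library of non-pregnant heifer 115 stood apart from the rest. On the first principal component of log2(CPM + 1), which carried 48.6% of the variance, it scored -151, against -78.2 for the next lowest library, of NB-preg heifer 116. Non-pregnant heifers 94, 107 and 113 lay at the other end, at 91.4, 75.3 and 109. A group difference on this component was not shown (mean -21.4 in NB-preg and 25.7 in non-pregnant heifers, p = 0.366, two-sided exact permutation test), and the difference of -90.7 without heifer 115 gave p = 0.0524. The second component, 23.7% of the variance, set heifers 93 and 111 of the NB-preg group and heifer 101 of the non-pregnant group, at 77.3, 73.6 and 98.6, against the other 8 libraries, which lay at 6.22 or below. PTPRC followed this split, with its 3 highest values in heifers 93, 111 and 101. Counts of genes past a rule that change without heifer 115 are given both ways.

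**Figure D1:**
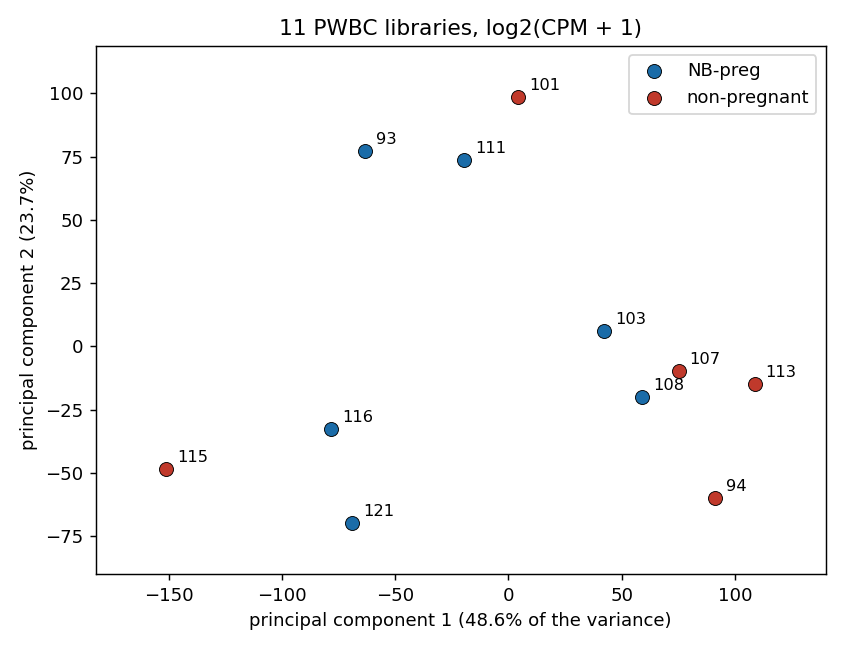
Scores of the 11 PWBC libraries on the first and the second principal component of log2(CPM + 1), 1 point per heifer labelled with its number, with NB-preg in blue and non-pregnant in red. Non-pregnant heifer 115 lies alone at -151 on the first component, and non-pregnant heifers 94, 107 and 113 lie at 75.3 to 109.

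The first question was which genes differed in transcript abundance between NB-preg and non-pregnant heifers. By the edgeR quasi-likelihood test none of the 10942 genes (0%) passed an adjusted p of 0.05, and the lowest adjusted p was 0.778. At an unadjusted p under 0.05 the same test had 672 genes (6.14%), of which 364 (3.33%) were higher and 308 (2.81%) lower in NB-preg heifers. The edgeR likelihood ratio test also called 0 genes after adjustment. DESeq2, which scales by its own size factors and not by library totals, called 11 genes (0.101%), all lower in NB-preg heifers. Without heifer 115 the quasi-likelihood test still called 0 genes (1883 at an unadjusted p under 0.05, lowest adjusted p 0.223), whereas DESeq2 called 750, with 370 higher and 380 lower in NB-preg heifers. Without NB-preg heifer 93 or 121, or without non-pregnant heifer 94, 107 or 113, DESeq2 called 0.

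The rule of the study's methods asks for an unadjusted p no higher than 0.03 from edgeR (its likelihood ratio test, by the study's code) and from DESeq2 alike, with all heifers and again as each of the 11 is left out in turn. The study matched this limit to an empirical false discovery rate from reshuffled samples, which was not recomputed here. Recomputed on all 10942 genes, 88 genes passed it, 67 lower in NB-preg heifers (0.612% of the genes tested) and 21 higher (0.192%). In a fit of only the 11 libraries compared, 67 lower and 7 higher genes passed, with 55 of the 67 and 7 of the 21 among them. The p-values as recomputed carry no adjustment for the number of genes. The 67 lower genes had log2 fold changes (NB-preg minus non-pregnant) of -4.53 to -1.34 with a median of -2.57, which is 5.93-fold lower. The 21 higher genes had a median of 1.94 (3.85-fold). All 88 had the same quasi-likelihood adjusted p of 0.778, with unadjusted p-values from 0.000912 to 0.0285. With heifer 115 left out of the whole rule 494 genes passed, 277 lower and 217 higher, and they held 56 of the 67 and 11 of the 21. The lower genes lost were ARG2, CPB2, CORO2A, SAMD4B, WLS, ISG20, DUSP2, SDS, MGAM, KDM6B and ENSBTAG00000048577, and the higher genes lost were SPRY2, ALG1, PPAT, CDCA8, CTH, SRPRB, TNFRSF17, ENSBTAG00000005458, ENSBTAG00000046389 and ENSBTAG00000052118. DESeq2 used its own size factors in every setting, so in the main run only edgeR was scaled by library totals. Scaling edgeR by DESeq2 size factors as well moved its median log2 fold change of all genes from 0.05 to -0.13. The rule then gave 148 lower and 21 higher genes, with 83 of the 88 among them. With those factors the genes at an unadjusted quasi-likelihood p under 0.05 were 590 lower and 166 higher, and with TMM factors they were 418 lower and 314 higher.

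**Figure D2:**
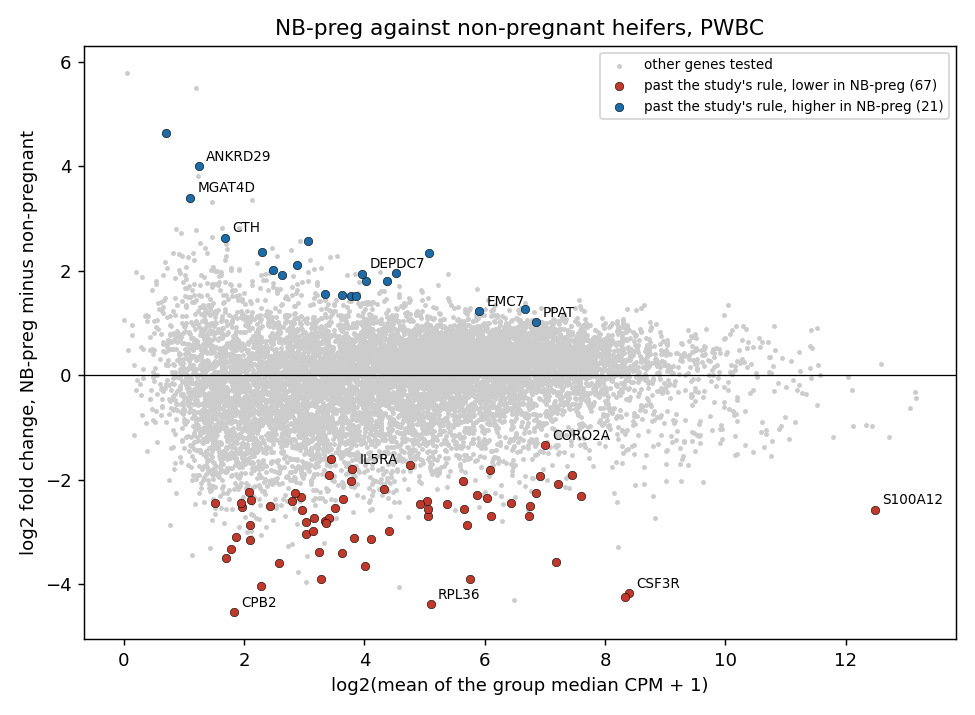
Log2 fold change of NB-preg minus non-pregnant heifers (vertical axis) against transcript abundance (log2 of 1 plus the mean of both group medians in CPM, horizontal axis) for the 10942 genes tested. The 67 genes past the study's rule with lower abundance in NB-preg heifers are red and the 21 with higher abundance are blue.

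The lower genes did not separate the groups heifer by heifer. In 0 of the 67 did every NB-preg heifer lie below every non-pregnant heifer in CPM, as in 0 of all 10942 genes tested. The count among the 67 was 2 with TMM factors, 5 with DESeq2 size factors and 24 without heifer 115. Over all genes tested it was 4, 12 and 280 in these settings. Non-pregnant heifer 107 lay above all NB-preg heifers in 67 of the 67 genes, heifer 113 in 66 and heifer 94 in 65. Heifer 101 did so in 26 and heifer 115 in 8, and heifer 115 lay below the NB-preg median in 45. In 55 of the 67 genes the 3 highest of the 11 libraries were those of heifers 94, 107 and 113, a set that held the 3 highest values in 8.67% of all genes tested. The SD of log2(CPM + 1) among non-pregnant heifers had a median of 1.78 over these 67 genes and 1.10 over all genes tested. Among NB-preg heifers the medians were 0.927 and 0.882. These counts describe genes that the same data selected and carry no test.

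**Figure D3:**
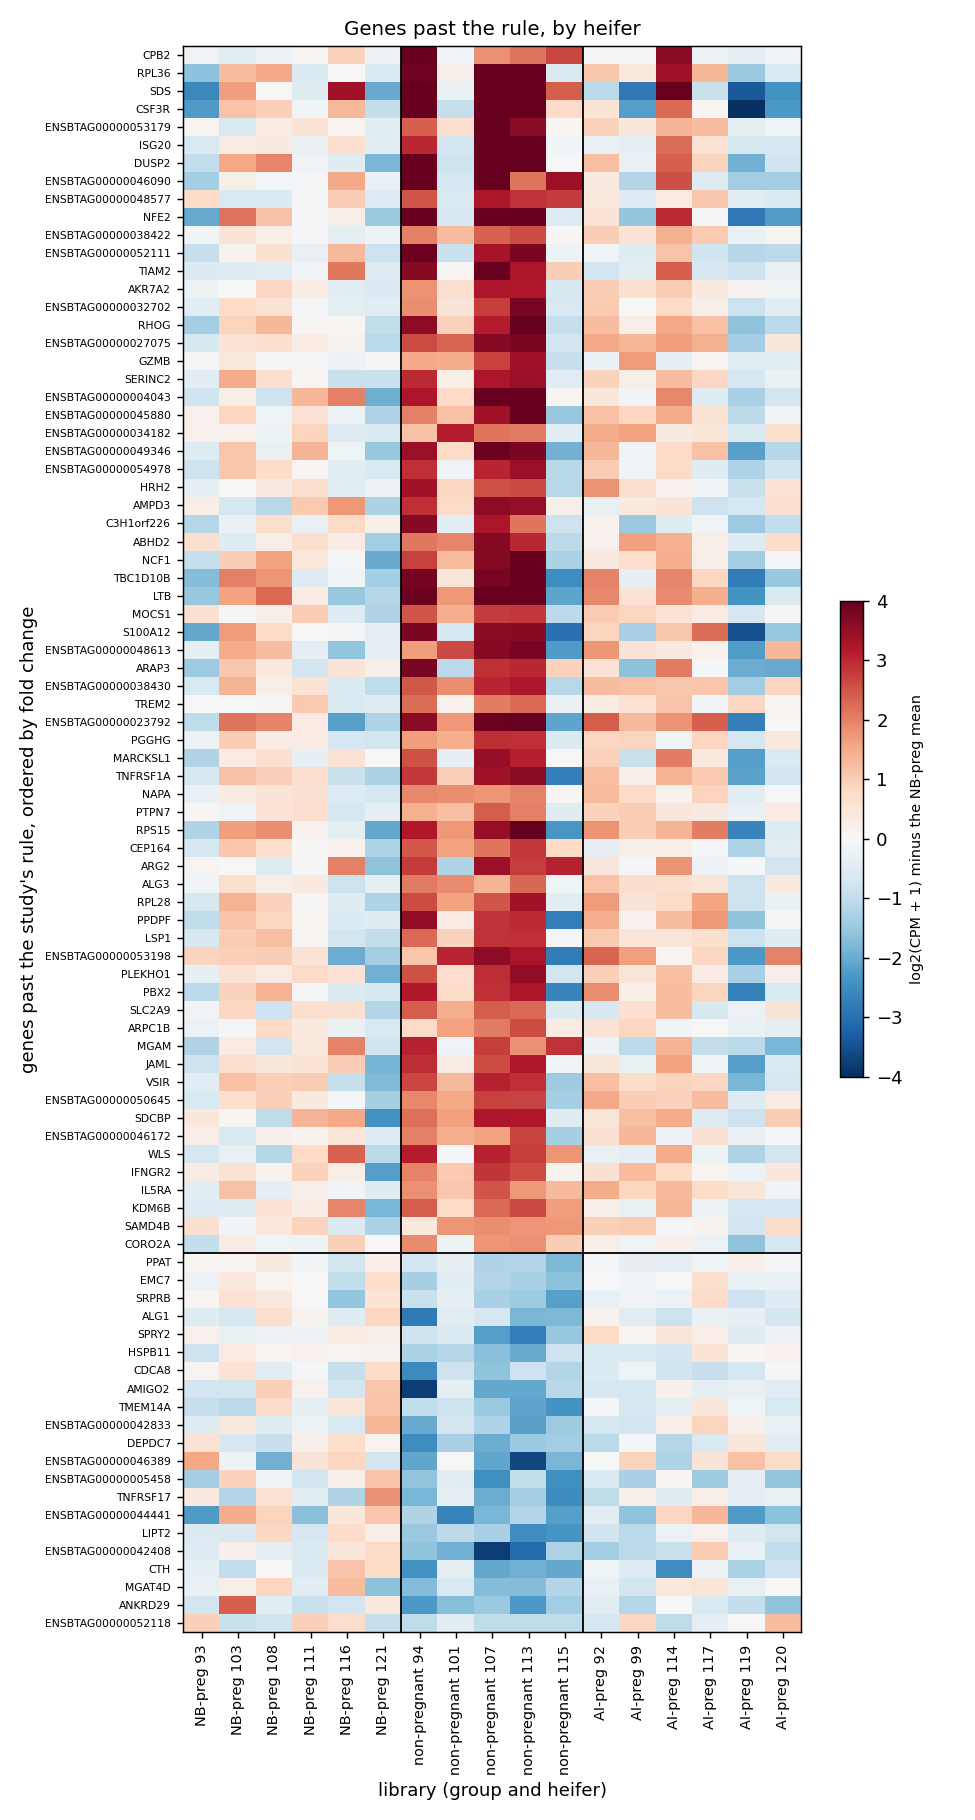
Abundance of the 88 genes past the study's rule (rows, ordered by fold change) in the 17 PWBC libraries (columns), as log2(CPM + 1) minus the NB-preg mean of the gene, from blue (4 below) to red (4 above, where the scale ends). The columns of non-pregnant heifers 94, 107 and 113 are red in the 67 upper rows, and heifer 115 is above all NB-preg heifers in 8 of them.

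Genes were grouped by lists of cell type markers and pathways, which hold only members whose identifier the study's supplementary tables pair with a symbol. Members counted as measured are those matched in this way and tested, and the rest of each list is not analysed here. Those tables include the study's own calls on these libraries, so neither the counts of list members nor the sums over them are independent evidence of a direction, and sums are given with no test. The 2228 tested genes with a symbol held 49 lower and 15 higher genes past the rule, which is 2.20% and 0.673%, and 143 and 49 with heifer 115 left out of the whole rule. Fold changes were negative for 1303 of these 2228 genes and for 5178 of all 10942, against which the sign counts of the lists are to be read.

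Of the 6 neutrophil markers measured, 4 passed the rule and all 6 had lower values in NB-preg heifers (median log2 fold change -2.37, against 0.05 over all genes tested and -0.33 over the tested genes with a symbol). Without heifer 115 the count was also 4, with TREM1 in place of MGAM. CSF3R (ENSBTAG00000013334), the receptor for granulocyte colony-stimulating factor, lay at 1101, 12.5, 636, 1241 and 42.3 CPM in the non-pregnant heifers and at 4.35 to 61.1 CPM (median 35.2) in the NB-preg heifers. Heifers 94, 107 and 113 were more than 10-fold above every NB-preg heifer, and heifers 101 and 115 lay inside the NB-preg range. Its log2 fold change was -4.17 ± 1.18 (SE), and its DESeq2 adjusted p was 0.028. S100A12 (ENSBTAG00000012638), a calgranulin of the neutrophil cytoplasm, lay at 11785, 527, 10637, 10794 and 109 CPM in non-pregnant and at 210.1 to 2792 CPM (median 851) in NB-preg heifers. The lowest value of all 11 libraries was that of non-pregnant heifer 115, and the log2 fold change was -2.57 ± 0.99. NCF1 (ENSBTAG00000003305), the p47 organiser of the NADPH oxidase, stood at 55.9, 19.4, 108, 155 and 2.58 CPM against 1.13 to 25 CPM (median 8.78, log2 fold change -2.7 ± 0.83). MGAM (ENSBTAG00000046152), a maltase-glucoamylase, stood at 42, 3.6, 34.2, 17.4 and 37.5 CPM against 1.22 to 19.5 CPM (median 3.81), and here heifer 115 was high and heifer 101 low. CXCR2, the interleukin 8 receptor, and TREM1, an amplifier of myeloid inflammation, had log2 fold changes of -1.7 ± 1.36 and -2.0 ± 0.74 and did not pass the rule. The log2 fold change of CXCR2 became -4.37 without NB-preg heifer 116.

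The other measured oxidase genes did not pass the rule. CYBA and CYBB, which form the membrane core of the enzyme, had log2 fold changes of -1.18 ± 0.86 and 0.22 ± 0.73. CYBB was highest in non-pregnant heifer 101, as was PTPRC. The summed neutrophil markers came to 225 to 2886 CPM in NB-preg heifers and to 13077, 580, 11534, 12369 and 207 CPM in non-pregnant heifers, a difference of -1.66 on the log2 scale. S100A12 made up most of this sum. The part of neutrophil markers in the genes past the rule was not tested.

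Of 6 surface receptors of myeloid cells measured, 3 passed the rule and all 6 had lower values in NB-preg heifers (median log2 fold change -2.06), and 5 passed without heifer 115. TREM2 (ENSBTAG00000007275), a lipid-sensing receptor of macrophages and the only monocyte marker with a matched identifier, lay at 6.13, 0.719, 5.27, 6.32 and 0.246 CPM in non-pregnant and at 0 to 2.15 CPM (median 0.507) in NB-preg heifers. JAML (ENSBTAG00000023283), an adhesion molecule of migrating leukocytes, lay at 308, 47.5, 242, 369 and 36 CPM against 10.1 to 78.3 CPM (median 55.1, log2 fold change -2.08 ± 0.68). VSIR (ENSBTAG00000010888), the inhibitory checkpoint VISTA, lay at 81.3, 30.7, 107, 97 and 3.81 CPM against 2.8 to 27.8 CPM (median 16.1). Further receptor genes known only by a description passed as well. The gene described as sialic acid binding Ig like lectin 5, ENSBTAG00000045880, lay at 13.2, 6.95, 35.9, 57.4 and 0.246 CPM in non-pregnant and at 0.533 to 5.33 CPM (median 2.55) in NB-preg heifers (DESeq2 adjusted p 0.044). The gene described as Fc gamma 2 receptor, ENSBTAG00000004043, which binds immunoglobulin, lay at 38, 6.23, 74, 88.6 and 3.44 CPM against 0.0666 to 15.8 CPM (median 2.67). A carcinoembryonic antigen-related cell adhesion gene, ENSBTAG00000049346, lay at 95.8, 14.4, 132, 119 and 1.35 CPM against 2.07 to 21.6 CPM (median 6.47). Gene families such as these hold close copies, and how the counting divided reads among them is uncertain.

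Among the 8 lower genes in which heifer 115 also lay above all NB-preg heifers was IL5RA (ENSBTAG00000000273), the interleukin 5 receptor of eosinophils. It lay at 22.4, 12.9, 36.8, 21.2 and 15.2 CPM in non-pregnant heifers and at 3.73 to 14 CPM (median 4.67) in NB-preg heifers. Thus 4 non-pregnant heifers lay above every NB-preg heifer and heifer 101 below only NB-preg heifer 103. Its log2 fold change was -1.79 ± 0.52, and its DESeq2 adjusted p was 0.028. HRH2 (ENSBTAG00000044071), a histamine receptor, lay at 24.1, 3.36, 13.1, 14.1 and 0.123 CPM against 0.782 to 2.98 CPM (median 1.26), with heifer 115 the lowest of all. The sum of both eosinophil markers was 4.80 to 15.4 CPM in NB-preg heifers and 46.5, 16.3, 49.9, 35.3 and 15.4 CPM in non-pregnant heifers (-1.88 on the log2 scale). Only these 2 of the 10 eosinophil markers had an identifier, through the study's tables of genes it called on these libraries, so the sum describes genes chosen for their difference.

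IFNGR2 (ENSBTAG00000012899), the second chain of the interferon gamma receptor, lay at 103, 52.7, 187, 159.8 and 28 CPM in non-pregnant and at 4.67 to 48.2 CPM (median 30.6) in NB-preg heifers, with NB-preg heifer 121 far below its group. The log2 fold change was -1.82 ± 0.53 and the DESeq2 adjusted p 0.0407. Of 8 cytokine and interferon receptors measured, 3 passed the rule (CSF3R, IL5RA and IFNGR2) and all 8 had negative fold changes (median -1.79), with 5 past the rule without heifer 115. Among TNF ligands and receptors, 3 of 10 passed, and not in the same direction. TNFRSF1A (ENSBTAG00000004211), the main TNF receptor of most cells, lay at 70.5, 18.2, 103, 120.0 and 0.492 CPM in non-pregnant heifers and 3.13 to 21.5 CPM (median 10.2) in NB-preg heifers, and LTB (ENSBTAG00000020674), lymphotoxin beta, at 129, 27.6, 149, 134 and 0.983 CPM against 1.99 to 40.4 CPM (median 6.3). Heifer 115 held the lowest value of the 11 for both. TNFRSF17 (ENSBTAG00000049285), the survival receptor BCMA of plasma cells, was the opposite case, at 2.19, 7.91, 1.84, 3.53 and 0.983 CPM in non-pregnant and 3.91 to 39.1 CPM (median 10.6) in NB-preg heifers (log2 fold change 2.11 ± 0.71). TNFRSF17 did not pass without heifer 115, and TNF itself, with a log2 fold change of -1.68 ± 0.81, did not pass in the full data.

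Interferon-stimulated genes had a median log2 fold change of -1.91 over 10 measured members, of which 1 passed the rule and 8 had negative fold changes. The passing gene was ISG20 (ENSBTAG00000014762), an exonuclease acting on single-stranded RNA, at 16.2, 0.24, 37.3, 35.6 and 0.983 CPM in non-pregnant and 0.388 to 2.35 CPM (median 1.19) in NB-preg heifers (log2 fold change -3.89 ± 1.13, DESeq2 adjusted p 0.044). Heifers 94, 107 and 113 were high, and heifer 101 was lower than every NB-preg heifer. Without heifer 115 its log2 fold change was -4.2 ± 1.08, and it did not pass every fit of the rule. IFIT1, IFIT2 and IFIT3, of an interferon-induced antiviral family, lay at 836, 62.1, 2172, 1155 and 376 CPM, 547, 58.7, 723, 896 and 160.5 CPM and 872, 37.6, 1655, 955 and 182 CPM in the non-pregnant heifers. In NB-preg heifers they spanned 22.2 to 873 CPM (median 48.5), 10.3 to 359 CPM (median 37.8) and 13.7 to 501 CPM (median 36.6). Each had its NB-preg maximum in heifer 116, and none of these 3 genes passed the rule. Without that heifer their log2 fold changes moved from -2.3, -2.43 and -2.74 to -4.21, -3.79 and -4.48. The 2 positive members, named after their values were seen, were GBP5 at 0.61 ± 0.38 and EPSTI1 at 0.74 ± 0.41, and neither passed. EPSTI1 became 0.40 without NB-preg heifer 108.

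Signalling and transcription genes with lower values in NB-preg heifers included DUSP2 (ENSBTAG00000020350), a phosphatase of MAP kinases in activated leukocytes, at 103, 1.44, 153, 149.5 and 3.32 CPM against 0.2 to 15.6 CPM (median 2.44, log2 fold change -3.89 ± 1.22, DESeq2 adjusted p 0.044). NFE2 (ENSBTAG00000001562), a transcription factor of the megakaryocyte and red cell lineages, lay at 285, 5.99, 277, 394 and 6.76 CPM against 1.74 to 48.4 CPM (median 10.7). Neither measured platelet gene passed. ITGA2B, an integrin of platelets, had a log2 fold change of -1.83 ± 1.08, and TUBB1, the platelet tubulin, had one of 0.86 ± 1.42, with non-pregnant values of 0.0646, 418, 0.491, 85 and 1530.1 CPM. The log2 fold change of TUBB1 was 0.34 without NB-preg heifer 103. Without heifer 115 it was 2.55, and TUBB1 did not pass. PTPN7, a haematopoietic phosphatase, KDM6B, a histone H3 lysine 27 demethylase, and PBX2, a homeobox factor, passed with log2 fold changes of -2.45, -1.71 and -2.26. SPI1, the PU.1 factor of myeloid cells, had one of -1.71 ± 0.80 and did not pass.

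**Figure D4:**
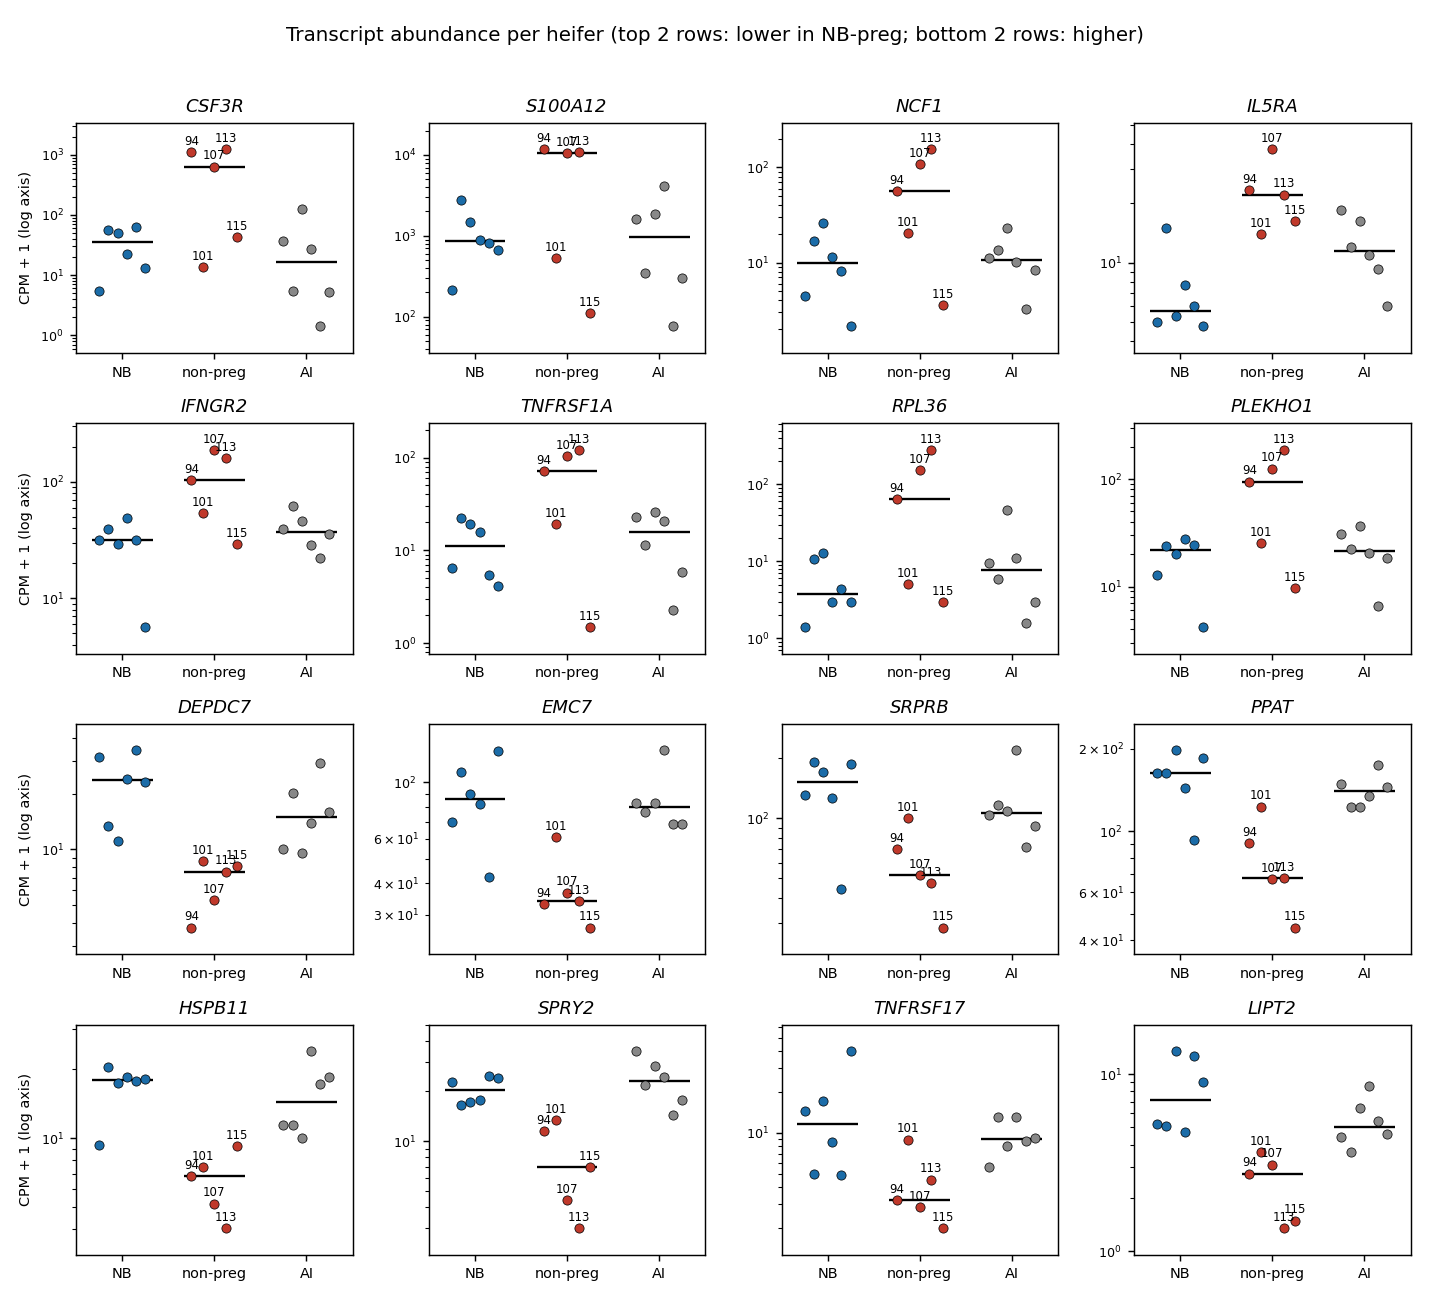
CPM plus 1 on a log axis in every heifer for 8 genes with lower (upper 2 rows) and 8 with higher abundance in NB-preg heifers (lower 2 rows), 1 point per library with NB-preg in blue, non-pregnant in red and AI-preg in grey, the group median as a bar and non-pregnant heifers labelled by number. In the upper rows heifers 94, 107 and 113 lie above all NB-preg heifers, and in DEPDC7, HSPB11, SPRY2 and LIPT2 all 5 non-pregnant heifers lie below all 6 NB-preg heifers.

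Genes of the actin cytoskeleton, which drives leukocyte shape and migration, had 5 of 10 measured members past the rule, all lower in NB-preg heifers, and 10 of 10 negative fold changes (median -1.53). The count was also 5 without heifer 115, with CORO1A in place of CORO2A. PLEKHO1 (ENSBTAG00000004852), a membrane-associated adaptor, lay at 93.8, 24.5, 124, 186 and 8.73 CPM in non-pregnant and 3.2 to 26.6 CPM (median 21.1) in NB-preg heifers (log2 fold change -2.3 ± 0.66). CORO2A (ENSBTAG00000007659), a coronin, lay at 216, 49.4, 199.9, 207 and 116 CPM against 28.8 to 112 CPM (median 55.2), and its log2 fold change of -1.34 ± 0.43 was the smallest of the 67. ARPC1B of the Arp2/3 complex, the leukocyte actin-binding LSP1 and MARCKSL1 passed with log2 fold changes of -2.23, -2.34 and -2.47. Outside this list, RHOG (ENSBTAG00000000347) lay at 41.8, 5.75, 29.9, 67.4 and 0.86 CPM against 0.388 to 7.93 CPM (median 2.66). ARAP3 (ENSBTAG00000015938), a GTPase-activating protein for Arf, lay at 158, 4.32, 85.3, 90.5 and 20.4 CPM against 3.15 to 22.7 CPM (median 13), with heifer 101 near the NB-preg minimum. TIAM2, a Rac exchange factor, passed with a log2 fold change of -3.38, which became -5.25 without NB-preg heifer 116.

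Ribosomal protein genes leaned to one side. Of 67 measured, 64 had negative fold changes, with a median of -1.18, and 3 passed the rule, against 15 without heifer 115. RPL36 (ENSBTAG00000001794) lay at 64, 4.08, 153, 279.7 and 1.97 CPM in non-pregnant and 0.405 to 11.7 CPM (median 2.72) in NB-preg heifers (log2 fold change -4.38 ± 1.2, DESeq2 adjusted p 0.0136), and RPL28 and RPS15 had log2 fold changes of -2.37 and -2.45. Many of these genes have processed copies in the genome, so their counts are uncertain. Together they took 3.98% ± 2.61 of counts in NB-preg (SD, n = 6) and 7.70% ± 5.66 in non-pregnant heifers (SD, n = 5). The difference of -3.73 percentage points is given with no test. Non-pregnant heifers stood at 12.5%, 2.80%, 10.2%, 12.4% and 0.517%. Without heifer 115 the difference was -5.52 points.

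Metabolic enzymes were divided. SDS (ENSBTAG00000031814), the serine dehydratase that yields pyruvate, lay at 633, 8.87, 993, 1162 and 63.5 CPM in non-pregnant heifers and 1 to 124 CPM (median 9.36) in NB-preg heifers, where heifer 116 was the highest (log2 fold change -4.24 ± 1.69). ARG2 (ENSBTAG00000001945), the mitochondrial arginase, lay at 56.8, 2.64, 88.3, 56 and 70.3 CPM against 1.73 to 33.2 CPM (median 7.25), and AMPD3, which deaminates AMP, at 17.2, 3.12, 27.7, 26.8 and 1.84 CPM against 0 to 7.04 CPM (median 1.19). ABHD2 (ENSBTAG00000019954), a serine hydrolase, lay at 15.5, 13.9, 48.2, 30.3 and 0.86 CPM against 0.467 to 5.03 CPM (median 3.7, DESeq2 adjusted p 0.0407). CPB2 (ENSBTAG00000007073), a carboxypeptidase that restrains clot lysis, had the lowest fold change of the 67 at -4.53 ± 1.5, from 29, 0.24, 3.8, 4.93 and 7.62 CPM in non-pregnant and 0 to 1.56 CPM (median 0.2) in NB-preg heifers. On the other side, PPAT (ENSBTAG00000010571), the first committed enzyme of purine synthesis, lay at 89.7, 122, 65.7, 66.6 and 43.5 CPM in non-pregnant and 91.6 to 196 CPM (median 162) in NB-preg heifers (log2 fold change 1.01 ± 0.31). CTH (ENSBTAG00000014791), which makes cysteine from cystathionine, lay at 0.0646, 3.36, 0.368, 0.498 and 0.369 CPM against 1.84 to 11.4 CPM (median 4.05), and its log2 fold change of 2.63 became 4.05 without non-pregnant heifer 101. The list of purine and amino acid enzymes thus had 3 of 11 members past the rule on the lower side and 2 on the higher side, with a median log2 fold change of -0.32. Without heifer 115 it had 1 on either side, AMPD3 lower and PSPH higher. Of 15 oxidative phosphorylation genes 0 passed the rule and 3 did without heifer 115, all lower. Their median log2 fold change was -0.35, with 11 negative and 4 positive members, beside -0.33 over the tested genes with a symbol. UQCRC1 and COX4I1 had an unadjusted quasi-likelihood p of 0.0306 and 0.0396 (log2 fold changes -2.12 and -1.76).

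The remaining named genes on the lower side were GZMB, a granzyme of cytotoxic lymphocytes, WLS, the carrier of secreted Wnt proteins, SDCBP (syntenin), NAPA, an adaptor of membrane fusion, SLC2A9, a urate transporter, CEP164 of the centriole, ALG3, a mannosyltransferase of N-glycan assembly, PGGHG, AKR7A2, MOCS1, SERINC2, TBC1D10B, PPDPF, SAMD4B and C3H1orf226. Their log2 fold changes ran from -3.32 for AKR7A2 to -1.61 for SAMD4B. GZMB (ENSBTAG00000010057) lay at 4.45, 4.32, 11.8, 19 and 0 CPM in non-pregnant and 0.626 to 1.55 CPM (median 0.858) in NB-preg heifers. Heifer 115 had 0 counts, and the other 4 non-pregnant heifers lay above all NB-preg heifers. SAMD4B, an RNA-binding protein, was the case in which heifer 94 and not heifer 115 was low, at 5.49, 15.3, 16.6, 15.5 and 15 CPM in non-pregnant and 1 to 7.9 CPM (median 4.49) in NB-preg heifers. Of the 67 genes, 49 had a symbol. Among the rest, ENSBTAG00000027075 had the lowest quasi-likelihood p of the 88, at 22.9, 18.5, 47.5, 51.5 and 1.35 CPM in non-pregnant and 0.866 to 5.23 CPM (median 3.58) in NB-preg heifers (log2 fold change -3.12 ± 0.80, DESeq2 adjusted p 0.0136). ENSBTAG00000053179 lay at 7.04, 1.44, 23.2, 17.6 and 0.614 CPM against 0 to 1.24 CPM (median 0.63) and ENSBTAG00000038422 at 4.26, 2.16, 5.77, 6.97 and 0.369 CPM against 0 to 0.872 CPM (median 0.244). Both also passed DESeq2 after adjustment (0.0136 and 0.044), with log2 fold changes of -4.03 ± 1.07 and -3.49 ± 1.0. Of the 67 genes, 26 had an NB-preg median under 2 CPM, so that their fold changes rest on few counts.

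Under the rule, genes with higher abundance in NB-preg heifers numbered 21 against 67, and at an unadjusted quasi-likelihood p under 0.05 they numbered 364 against 308. In the fit of only the 11 libraries 7 of the 21 passed. Of the 21, 7 had all 6 NB-preg heifers above all 5 non-pregnant heifers in CPM, as did 48 of all 10942 genes (0.439%). The SD of log2(CPM + 1) had a median of 0.677 among non-pregnant and 0.797 among NB-preg heifers over the 21 genes. Heifer 115 lay below every NB-preg heifer in 18 of the 21, as did heifers 94 and 107, heifer 113 in 17 and heifer 101 in 8. For most of the lower genes, by contrast, heifer 115 lay inside or below the NB-preg range. The rule selected the 21 genes for higher values in these same NB-preg heifers, so low non-pregnant values follow in part from the selection. The counts per heifer have no share over all genes tested beside them and carry no test.

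DEPDC7 (ENSBTAG00000021809), a DEP domain protein, had the lowest quasi-likelihood p of the higher genes (0.00125). It lay at 2.78, 7.67, 4.29, 6.57 and 7.13 CPM in non-pregnant and 10.1 to 33.2 CPM (median 22.5) in NB-preg heifers, with no overlap, and the log2 fold change was 1.94 ± 0.52. HSPB11 (ENSBTAG00000007112), a subunit of the intraflagellar transport complex, lay at 5.81, 6.47, 4.17, 3.04 and 8.23 CPM against 8.33 to 19.5 CPM (median 17), again with no overlap (log2 fold change 1.53 ± 0.48). SPRY2 (ENSBTAG00000001774), a feedback inhibitor of receptor tyrosine kinase signalling, lay at 10.5, 12.5, 3.43, 1.99 and 6.02 CPM against 15.6 to 23.6 CPM (median 19.3) and did not overlap either. LIPT2 (ENSBTAG00000008227), which starts the lipoylation of mitochondrial enzymes, lay at 1.74, 2.64, 2.09, 0.348 and 0.492 CPM against 3.73 to 12.5 CPM (median 6.14). ANKRD29 (ENSBTAG00000000517), an ankyrin repeat protein, was close to the floor in non-pregnant heifers, at 0, 0.48, 0.736, 0 and 0.86 CPM, and lay at 1.62 to 24.6 CPM (median 2.27) in NB-preg heifers. Its maximum was in heifer 103, and its log2 fold change of 4.0 ± 1.2 became 2.77 without that heifer. AMIGO2 (ENSBTAG00000002025), an adhesion protein, lay at 1.74, 27.8, 8.1, 8.06 and 16.3 CPM against 20.8 to 80.2 CPM (median 31.3), and TMEM14A (ENSBTAG00000005206), a small membrane protein, at 10.6, 11.5, 7.24, 4.23 and 3.32 CPM against 9.89 to 49 CPM (median 23.5). Their log2 fold changes were 1.79 ± 0.59 and 1.81 ± 0.54. Heifer 101 lay inside the NB-preg range in both, and heifer 94 in TMEM14A.

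In the list of translocation into and membrane insertion at the endoplasmic reticulum, 2 of 11 measured genes passed the rule, both higher in NB-preg heifers, and 5 of the 11 had negative fold changes. EMC7 (ENSBTAG00000007385), a subunit of the complex that inserts membrane proteins into the endoplasmic reticulum, lay at 32, 59.7, 35.7, 32.9 and 25.7 CPM in non-pregnant and 41.1 to 132 CPM (median 85) in NB-preg heifers (log2 fold change 1.23 ± 0.36). Heifer 101 was above NB-preg heifer 116 and the other 4 non-pregnant heifers were below all NB-preg heifers. SRPRB (ENSBTAG00000044075), the membrane anchor of the signal recognition particle receptor, lay at 68.9, 99, 51, 46.5 and 27.3 CPM against 43.2 to 190.3 CPM (median 151, log2 fold change 1.27 ± 0.42), and NB-preg heifer 116 lay below 4 of the 5 non-pregnant heifers. The median log2 fold change of the list was 0.15. EMC9, of the same complex as EMC7, had one of -2.42 ± 1.17 and did not pass. SPCS2 of the signal peptidase had an unadjusted quasi-likelihood p of 0.00686 (log2 fold change 1.08). Without heifer 115, EMC7 had a log2 fold change of 1.12 ± 0.37 and SRPRB 1.09 ± 0.42, and SRPRB no longer passed the rule. SPCS2 then passed as higher and EMC9 as lower.

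In N-glycan assembly, ALG1 (ENSBTAG00000002189), which adds the first mannose, lay at 2.39, 16.5, 14.1, 5.72 and 5.9 CPM in non-pregnant and 13.9 to 42.5 CPM (median 21) in NB-preg heifers (log2 fold change 1.51 ± 0.53). MGAT4D (ENSBTAG00000034281), a relative of the branching transferases, lay at 0, 1.2, 0, 0 and 0.492 CPM against 0.0666 to 7.04 CPM (median 2.31), at the limit of detection in non-pregnant heifers. These 2 and ALG3, on the lower side, were the 3 members past the rule of 10 measured, with a median log2 fold change of 0.32. DPM1, which makes the mannose donor, had an unadjusted quasi-likelihood p of 0.00486 (log2 fold change 1.3) and missed the rule. Without heifer 115 DPM1 passed and ALG1 did not. Among 9 genes of mitosis and DNA replication, CDCA8 (ENSBTAG00000014326), the chromosomal passenger borealin, passed at 1.36, 6.71, 3.56, 6.77 and 5.16 CPM against 6.26 to 22.2 CPM (median 13.1, log2 fold change 1.56 ± 0.55). Kinetochore gene NUF2 had a log2 fold change of 1.91 ± 0.75 and did not pass, and the list had a median of 0.76 with 6 positive and 3 negative members. The negative ones, named after their values were seen, were PLK1 at -1.51 ± 1.07, MCM7 at -0.71 ± 0.72 and FEN1 at -0.18 ± 0.71, and none of them passed. NUF2 became 2.88 without heifer 101, and MCM7 ranged from -1.28 (without heifer 108) to -0.36 (without heifer 113). Without heifer 115 0 of the 9 passed. PCNA, the replication clamp, lay at 261, 236, 181, 142 and 255 CPM in non-pregnant and 269 to 844 CPM (median 352) in NB-preg heifers without overlap and did not pass the rule either.

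TNFRSF17 stood beside JCHAIN, the joining chain of secreted antibodies, as the measured plasma cell genes. JCHAIN lay at 544, 1635, 182, 222 and 809.6 CPM in non-pregnant and 227 to 2706 CPM (median 1476) in NB-preg heifers (log2 fold change 1.16 ± 0.67), with heifer 101 above 3 of the 6 NB-preg heifers and a log2 fold change of 1.79 without it. The sum of both differed by 1.17 on the log2 scale. B cell markers CD22, CD79A and TNFRSF13C had fold changes from -1.56 to -0.68 on the log2 scale, 0 of 3 past the rule. With 1 heifer left out CD79A ranged from -2.12 (heifer 108) to -0.71 (heifer 113) and CD22 from -1.24 to -0.32 without the same heifers. Their sum was 12.5 CPM in heifer 115, 488 to 1409.8 CPM in the other non-pregnant heifers and 58.8 to 894 CPM in NB-preg heifers. T cell genes LCK and GATA3 had log2 fold changes of -1.06 ± 0.87 and -0.85 ± 0.43, and the killer cell genes NKG7 and NKG2A had -0.35 ± 0.60 and 1.53 ± 0.66. None of these 4 passed the rule. GZMB, the other killer cell gene measured, passed as lower with -3.09 ± 1.03, and passed again without heifer 115. NKG2A passed as higher without heifer 115, with a log2 fold change of 2.0 ± 0.69. The part of these cell type markers in the genes past the rule was not tested.

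The other 6 of the 21 genes had no symbol. ENSBTAG00000042833 lay at 1.61, 5.27, 3.43, 1.34 and 2.95 CPM in non-pregnant and 5.94 to 25.7 CPM (median 7.38) in NB-preg heifers, and ENSBTAG00000042408 at 3.49, 2.64, 0, 0.597 and 4.79 CPM against 8.16 to 22.9 CPM (median 12.1), both without overlap. ENSBTAG00000044441 lay at 14.3, 4.56, 8.95, 14.9 and 6.64 CPM against 6.4 to 98.1 CPM (median 56.2, log2 fold change 2.34 ± 0.77). ENSBTAG00000046389 had a log2 fold change of 1.95 ± 0.70, and ENSBTAG00000005458, described as TBC1 domain family member 24, one of 2.01 ± 0.78. ENSBTAG00000052118 had 165, 1, 4, 140, 15 and 1 counts in the NB-preg heifers and 0, 2, 0, 0 and 0 in the non-pregnant heifers, and no fold change is given for it because the non-pregnant counts are at or below the floor of 3.

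The 48 genes whose groups did not overlap were taken up after their values were seen, and they depend on the scaling. By TMM factors 33 genes lay higher without overlap and 4 lower, with 6 of the 48 among the 33. By DESeq2 size factors 12 lay higher and 12 lower, with 4 of the 48 among them. Without heifer 115 the counts were 282 higher and 280 lower. In CPM the 48 had a median log2 fold change of 1.01, 43 had an unadjusted quasi-likelihood p under 0.05, and 7 were among the 21. Symbols were known for 14. Outside the rule these were RABGGTB, which prenylates Rab proteins, the nucleic acid-binding TSN, ZNF706, ARMCX5, PCNA, COA6 of cytochrome oxidase assembly, RPF1 of ribosome production, the microtubule-severing KATNA1 and TRMT11, a tRNA methyltransferase. RABGGTB lay at 92.6, 175, 121, 72.5 and 169 CPM in non-pregnant and 207 to 607 CPM (median 256) in NB-preg heifers (log2 fold change 1.44 ± 0.39). TSN lay at 98.9, 156, 101, 70.5 and 152 CPM against 176 to 342 CPM (median 222, log2 fold change 1.01 ± 0.29). The lowest quasi-likelihood p of these 48 belonged to ENSBTAG00000001938 (0.000644), at 26.9, 18.2, 18.3, 18.2 and 37.6 CPM in non-pregnant and 48.6 to 252 CPM (median 63.1) in NB-preg heifers.

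**Figure D5:**
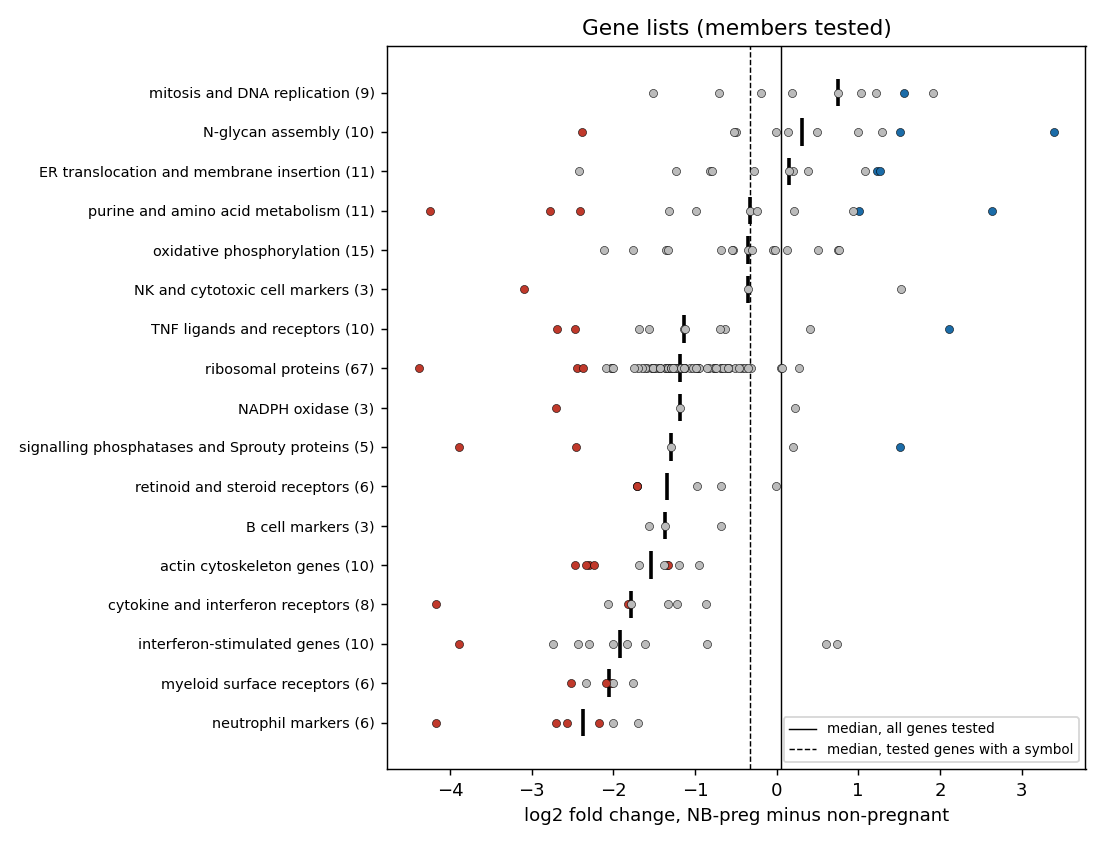
Log2 fold change of NB-preg minus non-pregnant heifers for the members of each gene list with at least 3 members tested, 1 point per gene, red for genes past the study's rule and lower, blue for genes past it and higher, with the list median as a bar. The solid vertical line is the median of all genes tested (0.05) and the dashed line that of the 2228 tested genes with a symbol (-0.33).

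FKBP5, the only gene with a matched identifier among 14 listed as glucocorticoid-responsive, had a log2 fold change of 0.50 ± 0.48, which ranged from 0.14 (without heifer 93) to 0.90 (without heifer 101). A set of 6 genes listed with retinoid and steroid receptors had a median log2 fold change of -1.34. The 1 past the rule was KDM6B, a histone demethylase and not a receptor. Without heifer 115 SPI1, a transcription factor of myeloid cells, passed in place of KDM6B. No receptor of the set passed in either case. SPIB, the only one of 8 dendritic cell markers with a matched identifier, had a log2 fold change of -0.55 ± 0.66, which ranged from -0.91 (without heifer 103) to -0.16 (without heifer 113).

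AI-preg heifers shared the non-pregnant controls, so their values are given side by side and the test is the direct contrast. NB-preg minus AI-preg gave 0 genes after adjustment by the quasi-likelihood test (lowest adjusted p 0.9996) and 16 at an unadjusted p under 0.05 (0.146%). None of the 88 genes was among these 16, which at a share of 0.146% of all genes says little about the 88. The lowest quasi-likelihood p of the 88 in this contrast was that of CPB2, at 0.0596 (direct difference -2.77 ± 1.38). CSF3R lay at 0.402 to 123 CPM (median 15.2) in AI-preg heifers, with a log2 fold change against non-pregnant heifers of -4.23 beside -4.17 for NB-preg, and NB-preg minus AI-preg was 0.06 ± 1.03. IL5RA lay at 5.04 to 17.4 CPM (median 10.5), with -0.96 beside -1.79, and the direct difference was -0.83 ± 0.49. RPL36 lay at 0.563 to 45.4 CPM (median 6.76), with -3.08 beside -4.38, and the direct difference was -1.29 ± 1.05. On the higher side DEPDC7 lay at 8.55 to 28.2 CPM (median 13.9), with 1.45 beside 1.94, and EMC7 at 67.3 to 133 CPM (median 78.7), with 1.18 beside 1.23. The direct differences of these 2 were 0.50 ± 0.47 and 0.04 ± 0.34. TNFRSF17 lay at 4.6 to 12.2 CPM (median 7.94), and its direct difference was 0.70 ± 0.63. AI-preg heifers 92 and 114 lay above all NB-preg heifers in 26 of the 67 lower genes. Heifers 99 and 117 did so in 15 and 12, and heifers 119 and 120 in 0 and 2. The 67 genes were selected for low values in these same NB-preg heifers, which by itself raises such counts. No share over all genes tested stands beside them, and whether AI-preg heifers resemble non-pregnant ones was not tested.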

How the data were processed

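PWBC RNA was sequenced as stranded, poly(A)-selected libraries. The deposited table holds raw counts of read pairs per Ensembl gene, made by the authors with HISAT2 2.1.0 on ARS-UCD1.2 and featureCounts 1.6.0 (versions from the submitters' processing notes). Reads with several alignments, those with 5 or more mismatches and duplicates had been removed, so abundant transcripts may be undercounted. No values of the authors' own comparisons were used.

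Genes with at least 2 CPM in 5 of 17 libraries were kept. Counts of all 3 groups were fitted in 1 edgeR 4.0.16 quasi-likelihood model scaled by library totals, with Benjamini-Hochberg adjustment over 10942 genes. SE was derived from the F statistic. The study's rule used the edgeR likelihood ratio test, scaled by library totals, and DESeq2 1.42.0 with its own size factors (R 4.3.3). Other scaling factors changed only the edgeR part of the rule. Scripts were tested on simulated data. Depth and the first component were compared by exact permutation tests (smallest p 0.00216). The planned tests of marker sums and of the ribosomal share are not given. Their members were matched through the study's tables, which include its calls. Named genes were those past the rule, up to 4 per list with the lowest p, and defining markers. The comparison, the members and the 26 gene lists were chosen with earlier results of these data known. No test of a list as a set is given. A marker and part of a list are not reported here. Symbols for 2335 identifiers came from the study's supplementary tables (names only), 2228 of them tested. Heifers are separate animals, so p-values measure the spread between animals. Plasma small RNA is not used here.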

Additional observations from a re-analysis of the deposited data

Results flagged for a closer look

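Of 72 groups of values checked for a single heifer far from the rest, 5 had one, where chance alone gives about 1 in 20. Each is given as the gap to the nearest heifer over the range of the group, with values on the log2 scale. In non-pregnant heifers the summed B cell markers of heifer 115 lay at 3.76 against 8.93 to 10.5 in the other 4 (ratio 0.772). The dendritic cell marker SPIB in the same heifer lay at 4.32 against 7.79 to 8.98 (ratio 0.743). Among NB-preg heifers, HSPB11 in heifer 93 lay at 3.22 against 4.13 to 4.36 (ratio 0.801), and still above all non-pregnant heifers. SRPRB in NB-preg heifer 116 lay at 5.46 against 6.98 to 7.58 (ratio 0.717). IFNGR2 in NB-preg heifer 121 lay at 2.50 against 4.86 to 5.62 (ratio 0.755).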

How the results depend on the processing

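The quasi-likelihood test called 0 genes after adjustment under each alternative run, with a lowest adjusted p of 0.223 without heifer 115. Genes at an unadjusted p under 0.05 numbered 1772 with no filter, 440 with only the 11 libraries in the fit, 1052 without heifers 115, 116 and 121, and 280 (without heifer 113) to 1883 (without heifer 115) with 1 heifer left out. DESeq2 called 11 genes in the full data and 0 to 750 with 1 heifer left out: 0 without heifer 93, 121, 94, 107 or 113, 1 without heifer 111, 74 without heifer 101 and 123 without heifer 116. This leave-one-out series and the whole rule without heifer 115 were added after the data were seen. Genes past the study's rule numbered 130 with TMM factors (32 higher, 98 lower), 169 with DESeq2 size factors (148 lower), 162 with no filter (40 higher, 122 lower), 60 at 10 CPM (40 lower), 74 in the fit of 11 libraries (7 higher, 67 lower), 189 without heifers 115, 116 and 121 (58 higher, 131 lower) and 494 without heifer 115 (217 higher, 277 lower). Genes passing without the leave-one-out part numbered 434, and 179 to 1598 with 1 heifer left out. Of the genes whose groups did not overlap, 4 were lower with TMM factors, 12 were higher and 12 lower with DESeq2 size factors, and 282 were higher and 280 lower without heifer 115, alternatives added after the data were seen. The ribosomal difference ranged from -5.52 (without heifer 115) to -2.52 with 1 heifer left out. The eosinophil marker sum was -1.90 with TMM factors, -2.04 with DESeq2 size factors and -2.10 without heifer 115, and the monocyte marker sum -1.69 without heifer 115. No p-value is given for these sums or for the ribosomal difference. Their members were matched through the study's tables, which include its own calls. Of 124 genes given with a fold change, 11 were called by DESeq2 alone and 4 changed sign with 1 heifer left out. With 1 heifer left out, the log2 fold change of NKG7 ranged from -0.65 (heifer 115) to 0.19 (heifer 94), that of FEN1 from -0.50 (heifer 115) to 0.20 (heifer 94), that of CYBB from -0.10 (heifer 111) to 1.18 (heifer 101) and that of PTPRC from -0.25 (heifer 93) to 1.51 (heifer 101). Platelet markers ranged from -0.348 (heifer 103) to 1.19 (heifer 116) and killer cell markers from -0.149 (heifer 115) to 0.436 (heifer 113). The cause of these changes was not tested. A fit on protein-coding genes alone was not run, as gene types of the build are not used here. No paired analysis was possible because no heifer was in both groups. Depth limits genes under the floor of 3 counts, from 0.0529 to 0.719 CPM.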
